A study of Mus musculus with 8 samples.

Results

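The genes described here are the receptors and enzymes of lysophosphatidic acid (LPA) in mouse long bone: the receptors Lpar1, Lpar3, Lpar4 and Lpar6, the LPA-producing enzyme Enpp2 (autotaxin), and the lipid phosphate phosphatases Plpp1 and Plpp3. They were matched by gene symbol. A value was found for 6 of these 7 genes, on 13 probe sets, out of 18193 genes and 45037 probe sets in all. Enpp2 had no probe set with its symbol in the annotation used and was not analysed here. The group of genes was chosen from differences between Hyp and WT in these same arrays, so its own differences are given as a description and without p-values.

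The data are 8 expression arrays of bone RNA (tibia and femur) from males at 12 days of age, with 4 arrays from Hyp and 4 from wild-type (WT) animals. In Hyp animals the 3′ part of Phex is deleted on a C57BL/6 background. The strain is used to study X-linked hypophosphatemia, a disease of phosphate wasting. The labels call the controls WT with no further strain name. The labels describe a standard diet for the colony, and for each RNA 2 bone samples of a genotype were combined, so an array is not a single bone. The labels do not say how many animals stood behind the arrays, so the errors refer to these RNA samples and not to animals. Whole bones hold marrow, vessels, cartilage and muscle remnants, and a lower value from such a mixture cannot be told apart into fewer cells of a type and less RNA per cell.

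LPA is a small phospholipid that signals from outside the cell. Autotaxin makes it by removing choline from lysophosphatidylcholine, and the phosphatases at the cell surface end the signal by removing its phosphate. Its receptors are coupled to G proteins and fall into an EDG family, to which Lpar1 and Lpar3 belong, and a group related to P2Y purine receptors, to which Lpar4 and Lpar6 belong. In bone, LPA is known to act on the growth and differentiation of osteoblasts and on the processes of osteocytes.

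The upstream sequences of a receptor from each family are shown because Lpar3 and Lpar6 lay on opposite sides of 0 in the comparison. They are the 250 bases before the RefSeq start (assembly GRCm38.p6), read 5′ to 3′ on the gene's strand, and capitals mark each match to GGGCGG or its reverse complement CCGCCC, the core of a GC box. Lpar3 is at chr3:146220711-146220960 on the + strand and Lpar6 at chr14:73237641-73237890 on the + strand.
Lpar3: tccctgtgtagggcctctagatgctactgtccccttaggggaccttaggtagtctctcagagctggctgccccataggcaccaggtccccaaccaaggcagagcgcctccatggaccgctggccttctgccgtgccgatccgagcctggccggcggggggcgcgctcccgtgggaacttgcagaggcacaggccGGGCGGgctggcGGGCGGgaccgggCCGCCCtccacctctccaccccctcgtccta
Lpar6: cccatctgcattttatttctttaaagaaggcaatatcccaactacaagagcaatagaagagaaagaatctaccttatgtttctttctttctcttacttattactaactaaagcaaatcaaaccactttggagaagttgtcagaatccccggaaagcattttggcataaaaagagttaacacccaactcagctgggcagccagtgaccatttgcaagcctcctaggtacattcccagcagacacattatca

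The Lpar3 window held 3 matches to the GC box core, 17 CpG dinucleotides and 69.6% G and C. The Lpar6 window held no match, 1 CpG and 39.2% G and C. A match was present in 32.7% of 32851 RefSeq starts examined over the same length, and their median CpG count was 6. Lpar1 has 3 starts in that table, 2 of them with 1 match each and 11 and 28 CpG, and the other with none and 3 CpG. The window of Lpar4 held 1 match and 3 CpG, and that of Plpp3 none and 6. Each of TATAAA (the TATA box), TGTGGT (the RUNX core) and GGAATG (the TEAD core) was searched on both strands too. TATAAA occurred once upstream of Lpar4 and in 12.4% of all starts. TGTGGT occurred once, upstream of the third Lpar1 start, and in 14.0% of all starts. GGAATG occurred once, upstream of Lpar6, and in 12.6% of all starts. These are matches of letters and not binding sites. The Lpar3 and Lpar6 windows were picked by the direction of their differences, and a link between sequence and direction was not tested.

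Values below are the deposited values, centred on 0 for each probe set and on a log scale whose base is not stated. Base 2 was assumed throughout, so every fold rests on it. The centred values are relative, so they show how arrays differ and not how much RNA was present, and no gene's level can be set against another's. The difference is Hyp minus WT, and the threshold is an adjusted p under 0.05 in limma over all probe sets. Each SE is from the limma fit, which pools both genotypes and draws each variance toward that of the other probe sets or genes. It is thus not the plain spread of a gene's own arrays. As a check of the labels, both Phex probe sets were lower on every Hyp array than on any WT array, and the Fgf23 probe set was higher on every Hyp array. Median differences over all probe sets and over all genes were 0.02 each.

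Among the members, Lpar3 and Lpar1 were lower in Hyp bone and no probe set of the group passed the threshold in the other direction. The 4 probe sets past it on the lower side were that of Lpar3 and all 3 of Lpar1, beside 3.91% of all probe sets called lower and 3.22% called higher. The other 9 probe sets did not pass. In 6 of the 13 probe sets the 4 Hyp arrays did not overlap the 4 WT arrays, beside 15.5% of all probe sets. Since the genes were picked with these differences known, nothing is read from the shares.

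Lpar3, a receptor that responds best to LPA with unsaturated fatty acids, had the widest difference of the group. Its values were -0.65, -0.65, -0.63 and -0.59 on Hyp arrays 1 to 4 and 1.01, 0.59, 1.08 and 0.78 on WT arrays 1 to 4. The groups were far apart, and the Hyp arrays lay much closer together than the WT arrays. The difference was -1.50 ± 0.10 (SE, n = 4 per group), or 2.83-fold lower in Hyp, the 13th lowest of 45037 probe sets. The SD was 0.03 between the Hyp arrays and 0.22 between the WT arrays. Because the centring removed the level, the data do not show whether the narrow Hyp values lay near the background of the array.

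Lpar1, the most widely expressed LPA receptor, was lower in Hyp at all of its probe sets and by a smaller amount. At 1417143_at the Hyp arrays 1 to 4 read -0.23, -0.17, -0.09 and -0.12 and the WT arrays 0.16, 0.09, 0.33 and 0.21. At 1448606_at they read -0.11, -0.28, -0.09 and -0.17 in Hyp and 0.21, 0.09, 0.21 and 0.31 in WT. Both of these probe sets kept the genotypes apart. At 1426110_a_at the Hyp arrays read 0.03, -0.27, -0.28 and -0.25 and the WT arrays 0.26, 0.27, -0.03 and 0.31. There Hyp replicate 1 lay above the other Hyp arrays and WT replicate 3 below the other WT arrays, so the groups overlapped. The differences were -0.35 ± 0.07, -0.37 ± 0.07 and -0.39 ± 0.10 (SE, n = 4 per group) in that order. Averaged over its probe sets, Lpar1 differed by -0.37 ± 0.05, or 1.29-fold lower in Hyp. The probe set 1426110_a_at missed the threshold without Hyp replicate 2, 3 or 4 or WT replicate 1, 2 or 4, each left out alone, which left 3 probe sets past it.

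**Figure D1:**
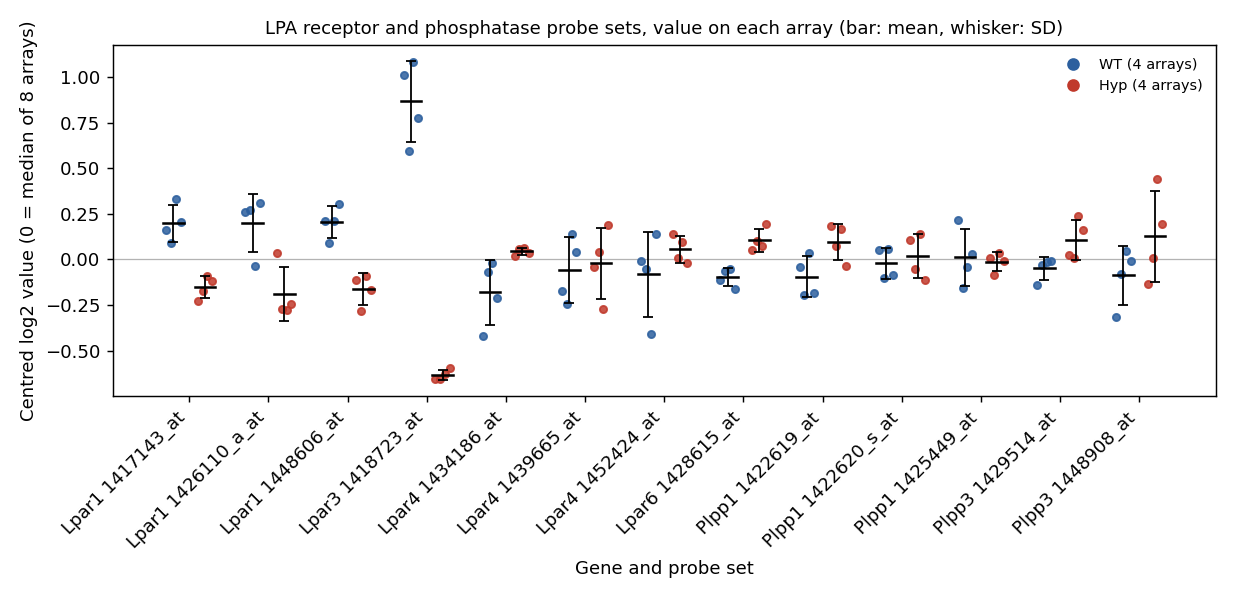
Centred log2 value on each array (y axis, 0 is the median of the 8 arrays) for the 13 probe sets (x axis) of 6 genes, WT in blue and Hyp in red, with 4 arrays each. Bars are means and whiskers SD. Lpar3 spans -0.65 to -0.59 in Hyp and 0.59 to 1.08 in WT, while the Plpp1 and most Lpar4 probe sets overlap.

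Lpar6, a receptor best known from hair follicles and vessels, lay on the other side of 0. Its single probe set read 0.05, 0.10, 0.07 and 0.19 on Hyp arrays 1 to 4 and -0.11, -0.06, -0.05 and -0.16 on WT arrays 1 to 4. The groups did not overlap, and the difference was 0.20 ± 0.06 (SE, n = 4 per group), or 1.15-fold higher. It did not pass the threshold over probe sets but did in the fit over gene means, with the same difference and an SE of 0.05. In that fit, 6.54% of all genes were called higher and 6.32% lower, and the members stood at 1 higher (Lpar6) and 2 lower (Lpar1 and Lpar3) of 6. With Hyp array 2 or 4, or WT array 1 or 4, left out alone, Lpar6 missed the threshold and no member was called higher. RefSeq places Lpar6 within Rb1, the retinoblastoma gene. Rb1 differed by 0.03 ± 0.06 on its gene mean (limma adjusted p = 0.818), and by 0.15 ± 0.08 and -0.10 ± 0.13 at its 2 probe sets.

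Lpar4, the other P2Y-like receptor, did not pass at any of its 3 probe sets. At 1434186_at the Hyp arrays 1 to 4 read 0.02, 0.06, 0.06 and 0.04 and the WT arrays -0.42, -0.07, -0.02 and -0.21. All Hyp arrays lay above all WT arrays there, with WT replicates 1 and 4 the lowest, and the difference was 0.22 ± 0.09 (SE). At 1439665_at the difference was 0.04 ± 0.11 and at 1452424_at 0.14 ± 0.11, with overlapping groups. The gene mean differed by 0.13 ± 0.05 and did not pass.

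The phosphatases showed no difference past the threshold at any of their 5 probe sets. Plpp1, which removes the phosphate of LPA and related lipids, read 0.18, 0.07, 0.17 and -0.04 on Hyp arrays 1 to 4 and -0.04, -0.20, 0.04 and -0.18 on WT arrays at 1422619_at, with a difference of 0.19 ± 0.08 (SE, n = 4 per group). Its other probe sets differed by 0.04 ± 0.08 and -0.03 ± 0.08, both smaller than their SE, so no direction can be read from them. Plpp3, a phosphatase of the same family that is abundant in vessel walls and fibroblasts, read -0.13, 0.01, 0.44 and 0.19 in Hyp and -0.31, -0.08, 0.05 and -0.01 in WT at 1448908_at. Hyp replicate 3 stood highest and WT replicate 1 lowest, and the groups overlapped, with a difference of 0.22 ± 0.12. At 1429514_at the difference was 0.16 ± 0.07 with the groups just apart, the lowest Hyp value being 0.01 and the highest WT value -0.01.

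Genes of the wider pathway were set beside the members on gene means, from lists that the members are not part of. Of 96 such genes with a value (of 101 listed), 8 were lower and 8 higher in Hyp, with a median difference of 0.03. Over all genes, 6.32% were called lower and 6.54% higher, and these shares stand beside the counts of each list below. Without single arrays the higher count fell to 2 (WT replicate 1), 3 (Hyp replicate 1 or WT replicate 4), 4 (Hyp replicate 4) and 5 (Hyp replicate 3), while the lower count lay between 6 and 10.

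Of 6 other receptors of LPA and of sphingosine 1-phosphate, a related lipid, S1pr1 was higher and the rest did not pass (list median 0.02). S1pr1, the main sphingosine 1-phosphate receptor of endothelium, rose by 0.27 ± 0.08 (SE over 4 arrays a genotype; limma adjusted p = 0.0464). Its single probe set did not pass in the fit over probe sets. In the fit over gene means, S1pr1 missed the threshold without any one of Hyp replicates 1, 3 and 4 and WT replicates 1, 3 and 4. It also missed it after median centring, quantile normalization or cyclic loess. Lpar2, the EDG-family receptor outside the group, lay at 0.11 ± 0.07 (limma adjusted p = 0.369).

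In the family of autotaxin, 1 of 4 measured members was lower and the rest did not pass (median -0.17). Enpp6, a phosphodiesterase that acts on choline-containing lipids and glycerophosphocholine, fell by 0.53 ± 0.08 (limma adjusted p = 0.0015), with the probe set 1436090_at at -0.75 ± 0.09 and 1438785_at at -0.31 ± 0.09, where only the first passed. Enpp5 lay at -0.39 ± 0.12 (limma adjusted p = 0.0588), and without WT replicate 3 at -0.52, past the threshold.

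Among 10 other lipid phosphate phosphatases and relatives, 2 were lower and 1 higher (median -0.03). Plppr4, a relative without phosphatase activity that is known from synapses, fell by 0.72 ± 0.09 (limma adjusted p = 0.00062) and at both of its probe sets. Its values were -0.22, -0.63, -0.30 and -0.43 on Hyp arrays and 0.30, 0.17, 0.42 and 0.41 on WT arrays, with no overlap. Plpp5, a phosphatase of the family, fell by 0.60 ± 0.08 (limma adjusted p = 0.000685). Plppr3 rose by 0.29 ± 0.08 (limma adjusted p = 0.0362) but missed the threshold without any one of Hyp replicates 1, 3 and 4 and WT replicates 1, 3 and 4. Its single probe set did not pass in the fit over probe sets.

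Of 31 measured enzymes that make or break down LPA and phosphatidic acid, 3 were lower and 3 higher (median 0.05). Pla2g4a, the cytosolic phospholipase that releases arachidonate and leaves lysophospholipids, fell by 0.59 ± 0.06 (limma adjusted p = 0.000104). It ranged from -0.35 to -0.21 in Hyp and from 0.21 to 0.39 in WT. Acp6, a phosphatase of LPA in mitochondria, fell by 0.31 ± 0.05 (limma adjusted p = 0.00136). Lipi, a phospholipase that forms LPA from phosphatidic acid, fell by 0.34 ± 0.08 (limma adjusted p = 0.0181) and no longer passed once Hyp array 1 or 2 or WT array 4 was left out. Pla1a, a secreted phospholipase that acts on phosphatidylserine, rose by 0.56 ± 0.08 (limma adjusted p = 0.00109), ranging from 0.17 to 0.46 in Hyp and from -0.39 to -0.17 in WT. Lpin1, a phosphatidic acid phosphatase, rose by 0.35 ± 0.08 (limma adjusted p = 0.0186) at the gene mean, at 1 of its 2 probe sets, and no longer passed once Hyp array 3 or WT array 1 or 4 was left out.

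**Figure D2:**
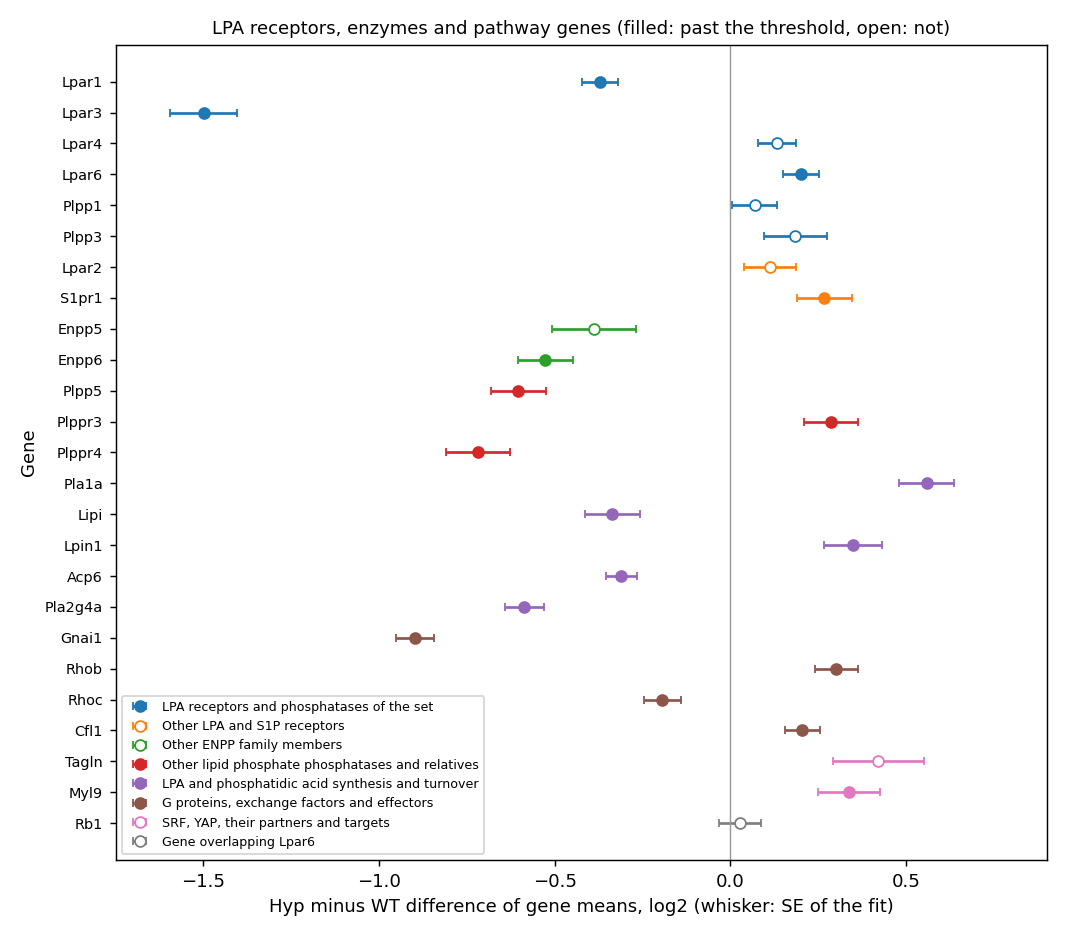
Hyp minus WT difference of gene means on the log2 scale (x axis) with the SE of the fit as whiskers, for 6 member genes and the named pathway genes (y axis), coloured by list and filled where past the threshold. Lpar3 lies furthest to the left at -1.50, followed by Gnai1 at -0.90, and Pla1a furthest to the right at 0.56.

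Downstream of the receptors, 2 of 23 measured G proteins, exchange factors and effectors were lower and 2 higher (median 0.03). Gnai1, an inhibitory G protein subunit of the class that LPA receptors use, fell by 0.90 ± 0.05 (limma adjusted p = 1.6e-05). It read -0.43, -0.51, -0.45 and -0.37 on Hyp arrays 1 to 4 and 0.51, 0.48, 0.36 and 0.49 on WT arrays, and all 3 of its probe sets passed, from -0.97 to -0.83. Rhob, a small GTPase, rose by 0.30 ± 0.06 (limma adjusted p = 0.00974). Cfl1, which severs actin filaments, rose by 0.21 ± 0.05 (limma adjusted p = 0.0202) and Rhoc, a GTPase related to Rhob, fell by 0.19 ± 0.05 (limma adjusted p = 0.0377). Cfl1 no longer passed once Hyp array 1 or 2 or WT array 1 or 4 was left out, and at its probe set without a shared-probe suffix lay at 0.13. Rhoc missed the threshold without any one of the Hyp arrays, WT replicate 1 or WT replicate 4. Of its 2 probe sets, at -0.32 and -0.07, only 1 passed.

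SRF and YAP, transcription regulators that respond to actin dynamics, were listed with their partners and target genes, and of these 21 genes 1 was higher, a target, and the rest did not pass (median 0.05). Myl9, a myosin light chain of smooth muscle and other contractile cells, rose by 0.34 ± 0.09 (limma adjusted p = 0.0292). It missed the threshold without any one of the Hyp arrays, WT replicate 1 or WT replicate 3, and its single probe set did not pass over probe sets. Tagln, an actin-binding protein of smooth muscle, lay at 0.42 ± 0.13 (limma adjusted p = 0.0575), and without Hyp replicate 2 at 0.52, past the threshold.

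Markers of bone and marrow cells differed between the same arrays, in the fit that called 6.32% of all genes lower and 6.54% higher. Of 8 measured osteoblast markers 6 were lower and 1 higher. Their mean lay between -0.27 and -0.10 on Hyp arrays and between 0.14 and 0.27 on WT arrays, apart in the same direction as Lpar1 and Lpar3. Ifitm5 (-1.22 ± 0.09, SE) and Tmem119 (-0.75 ± 0.06), both osteoblast genes, had the smallest p in that list. The marker that was higher was Col1a1, the main collagen of bone matrix, at 0.47 ± 0.12 with the genotypes apart (limma adjusted p = 0.026), named after its value was seen. Other genes of that list, among them Bglap, Runx2 and Spp1, were not analysed here. Of 13 endothelial markers 11 were higher, with list means from 0.09 to 0.25 in Hyp and from -0.35 to -0.16 in WT. Of 12 macrophage markers 9 were higher (0.20 to 0.35 in Hyp, -0.39 to -0.22 in WT), as were all 6 erythroid markers measured of 9 listed (0.05 to 0.24 in Hyp, -0.37 to -0.12 in WT) and 7 of 15 chondrocyte markers (0.05 to 0.46 in Hyp, -0.44 to -0.13 in WT). These lists were apart in the direction of Lpar6. Examples were Plvap (0.59 ± 0.06) and Eng (0.51 ± 0.05) of endothelium, Adgre1 (0.94 ± 0.08) and C1qa (0.86 ± 0.07) of macrophages, Alas2 (0.48 ± 0.07) and Klf1 (0.49 ± 0.07) of erythroid cells, and the cartilage collagens Col10a1 (2.57 ± 0.28) and Col2a1 (0.78 ± 0.16). Of 5 osteocyte markers 2 were lower and 1 higher, and their list means overlapped (-0.35 to -0.02 in Hyp, -0.03 to 0.46 in WT). Sost, a Wnt inhibitor made by osteocytes, lay at -1.85 ± 0.14 and Mepe, a matrix protein, at 0.87 ± 0.16. Fibroblast and pericyte markers had 3 higher and 2 lower of 11, with overlapping means (0.01 to 0.09 in Hyp, -0.09 to 0.04 in WT), with Pdgfrb at 0.58 ± 0.05 and Pdgfra at -0.47 ± 0.07. Whether defining markers of any type were absent cannot be read from centred values. The part of these cell types in the differences of the LPA genes was not tested.

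The remaining lists gave fewer calls by number, though in the short Schwann cell and adipocyte lists the share was not lower than among chondrocyte markers. Of 4 measured Schwann cell markers 1 was higher (S100b, 0.88 ± 0.07) and 1 lower (Pmp22, -0.44 ± 0.10), and of 4 adipocyte markers 1 was higher (Fabp4, 0.55 ± 0.15) and 1 lower (Adipoq, -0.46 ± 0.13). The Schwann cell list means were apart in the direction of Lpar6 (0.07 to 0.13 in Hyp, -0.11 to -0.03 in WT). S100b had the widest difference of that list, while Sox10 lay at 0.20 ± 0.07 and Mbp at -8.2e-05 ± 0.08, neither past the threshold. With Pmp22 on the other side, the list mean does not show a shared direction of its genes. Of 8 osteoclast markers and of 9 B lineage markers 1 each was lower. The osteoclast list means were apart in the direction of Lpar1 and Lpar3, by a narrow gap (-0.11 to -0.03 in Hyp, -0.02 to 0.10 in WT). Megakaryocyte (5) and neutrophil (8) markers had no call. Of 13 skeletal muscle markers none passed, but their mean was 1.89 on WT replicate 3 and -1.10 on Hyp replicate 2, with the other arrays between -0.57 and 0.29. Without both of these arrays Lpar1 and Lpar3 were still the 2 member genes called lower and no member was called higher. With the muscle mean as a covariate the calls were 2 lower and 1 higher.

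**Figure D3:**
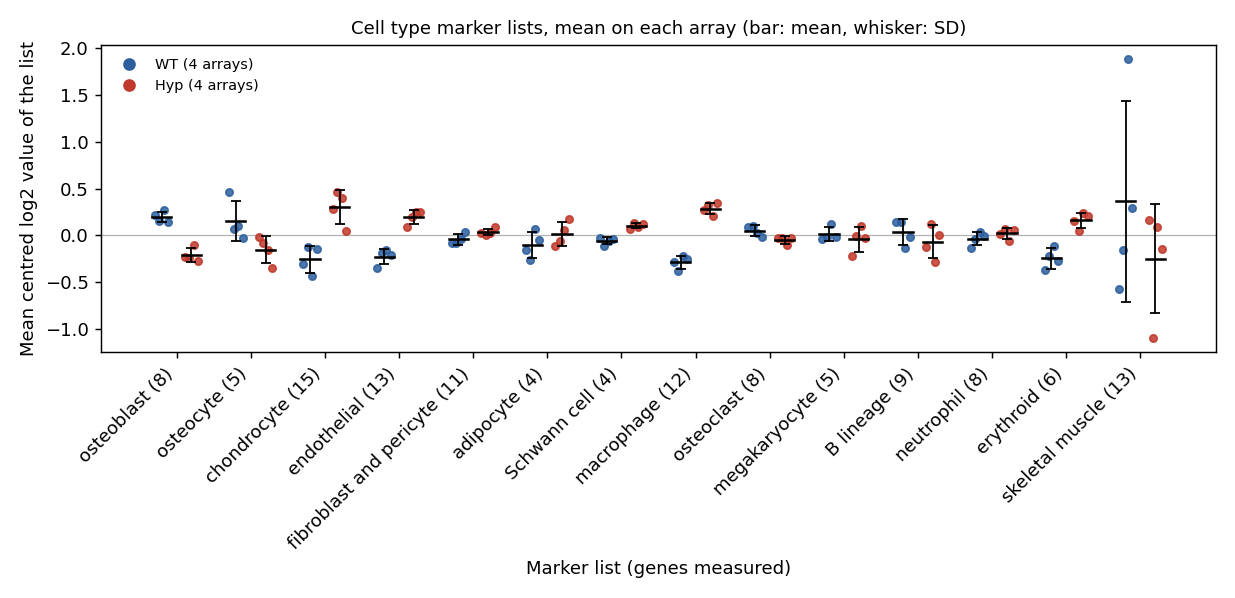
Mean centred log2 value (y axis) of each cell type marker list (x axis, number of genes measured in brackets) on each array, WT in blue and Hyp in red, 4 arrays each, with means as bars and SD as whiskers. Osteoblast means lie lower in Hyp and endothelial, macrophage and erythroid means higher, while 1 WT array stands at 1.89 for skeletal muscle.

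Genes with a pattern like that of each member were ranked by Pearson's r among 611 other genes whose SD over the 8 arrays was at least 0.3. The r over 8 arrays mostly follows the genotype difference where the genotypes lay far apart, as for Lpar3. For Plpp1 and Plpp3 it changed little once genotype means were subtracted, from 0.822 to 0.813 for Plpp1 with Sowahb and from 0.905 to 0.859 for Plpp3 with Kcne4. In every case a highest r among so many genes is high by selection. For Lpar3 the closest were Cd1d1 (r = 0.996), an antigen-presenting molecule, Kcnma1 (0.995), a potassium channel, and Gpx8 (0.995), a peroxidase of the endoplasmic reticulum. After each genotype's mean was subtracted they were Gdpd5 (r = 0.964), Cog6 (0.952) and Cd1d1 (0.937). These r rest mainly on the WT arrays, as the SD of Lpar3 was 0.03 between the Hyp arrays and 0.22 between the WT arrays. Cd1d1 differed by -0.66 ± 0.06 (SE) between the genotypes.

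For Lpar1 the closest genes over 8 arrays were B3gnt9 (r = 0.992), Sgms2 (0.986), which makes sphingomyelin at the plasma membrane, and Gpr180 (0.984). B3gnt9 and Sgms2 were also closest once the genotype means were subtracted, each with r = 0.864, followed by Kera (0.836). Sgms2 differed by -1.05 ± 0.06 (SE). For Lpar6 the closest were Ptger2 (0.966), a prostaglandin receptor, Smco3 (0.944) and Sema3g (0.941), and after subtraction Lurap1l (0.853), Ptger2 (0.831) and 3110040M04Rik (0.807), of which Lurap1l differed the other way from Lpar6 (-0.55 ± 0.06). For Lpar4 they were Bmp6 (0.927), Cav1 (0.911) and P2ry6 (0.911), and after subtraction C1qc (0.866), Bmp6 (0.863) and Adgre1 (0.855), of which C1qc and Adgre1 are in the macrophage list. Plpp3 was nearest to Kcne4 (0.905), Lrg1 (0.890) and Tagln (0.884), and after subtraction to Triqk (0.926), Snai1 (0.878) and Ambn (0.863). Plpp1 was nearest to Sowahb (0.822), Tnfrsf11b (0.762) and Phlda1 (0.760), and after subtraction to Irx6 (0.957), Col11a1 (0.943) and Kcnma1 (0.876). Triqk (-0.56 ± 0.09), Irx6 (-1.09 ± 0.10) and Col11a1 (-0.78 ± 0.06) were lower in Hyp, unlike the gene means of Plpp3 and Plpp1.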

How the data were processed

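The authors deposited values on a log scale, taken here as log2; RMA is listed per the submitters' processing notes. Its version and the base of the logarithm are not given in the sources used here. Every probe set had a median of 0 over the 8 arrays, so levels and detection cannot be read. Of 45101 probe sets, 64 controls were left out. The platform annotation gave 1 symbol for 34945 probe sets, several for 932 and none here for 9160; symbols were updated by gene identifier (34741 matched, RefSeq GRCm38.p6). All probe sets of a symbol were averaged per array for gene means. The genotypes were compared by lmFit and eBayes (limma 3.58.1, R 4.3.3) without covariates, two-sided, with Benjamini-Hochberg adjustment over all 45037 probe sets or 18193 genes. The number of arrays limits the precision (median SE 0.08 per probe set). No 2 arrays were alike (SD of the difference from 0.168 to 0.311). The fit over probe sets was run on simulated data with independent noise in each probe set. This was a check of the procedure only and is no support for the calls. The members and gene lists were chosen with earlier results of these data known. Pathway genes were named by rank of p, up to 5 past the threshold per list and the first 2 where fewer than 2 passed; from cell type lists with at least 1 in 3 genes called, the first 2. Alternatives covered single arrays, normalization, weights, prior, thresholds, filters, probe set choice, replicate number and a muscle covariate.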

Additional observations from a re-analysis of the deposited data

Results flagged for a closer look

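In 72 groups of 4 arrays (13 member probe sets, the gene means and the named pathway genes), 3 had an array that stood apart from the other 3 by Dixon's ratio of gap to range; about 5% of groups, here 3.6, are marked so by chance. For Lpar1 at 1426110_a_at this was Hyp replicate 1 at 0.03 (ratio 0.904) and also WT replicate 3 at -0.03 (ratio 0.859). The other 2 Lpar1 probe sets had no such array. For Tagln it was WT replicate 1 at -0.44 (ratio 0.860).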

How the results depend on the processing

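Lpar1 and Lpar3 were the 2 member genes called lower under all 20 alternatives, with differences from -0.39 to -0.35 and from -1.59 to -1.42. The member genes called higher were 0 in place of 1 (Lpar6) with the replicate block, without both WT replicate 3 and Hyp replicate 2, at an adjusted p under 0.01, with the filter on SD and with the probe set of the largest SD per gene, and from 0 to 1 with 1 array left out. Member probe sets called lower fell from 4 to 1 at an adjusted p under 0.01 and lay between 3 and 4 with 1 array left out; those called higher were 0, but 1 (Lpar6) with array weights. Pathway genes called higher, 8 at first, were 13 with array weights, 2 at an adjusted p under 0.01, 5 without shared-probe suffixes and from 2 to 10 with 1 array left out. Of 15 named pathway genes called, 8 (Acp6, Enpp6, Gnai1, Pla1a, Pla2g4a, Plpp5, Plppr4 and Rhob) passed under every alternative that gave a value, and 7 did not. Rb1, not called, turned sign without Hyp replicate 2 (-0.019, the range with 1 array left out being -0.019 to 0.065), without both arrays (-0.011), with cyclic loess (-0.0011) and with the probe set of the largest SD (-0.099). The cause of these shifts was not tested. The replicate numbers were not taken as pairs in the main fit. Same-numbered arrays correlated at 0.145, -0.044, 0.262 and 0.179 after removal of group means. For replicates 3 and 4 this exceeded the highest correlation with another number (-0.028 and -0.005), for 1 and 2 it did not (0.199 and 0.132). So few correlations do not settle whether the numbers mark pairs. With the replicate block, 4 member probe sets, 2 member genes and 6 pathway genes (higher) were called; Lpar6, S1pr1, Plppr3 and Rhoc no longer passed, and Enpp5 and Tagln did. Signal over background limits what can be said of weak genes and cannot be read here.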
